A study of Mus musculus with 12 samples.

Results

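The T cell factor and lymphoid enhancer factor (TCF/LEF) family, the BCL11 zinc-finger proteins, the E proteins, their inhibitor Id3 and the receptor Notch1 were examined in mouse natural killer (NK) cell lines with and without added Myb. Members were chosen by name from a list of 9 lymphoid factors, namely Tcf7, Lef1, Bcl11a, Bcl11b, Tcf3, Tcf4, Tcf12, Id3 and Notch1. A member was measured where the array annotation paired a probe set with its symbol alone, which gave 8 of 9 members out of 19938 genes in all, and Tcf7 was not analysed here. Each of the 8 members had 1 probe set.

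Expression was measured as log2 values per probe set on 12 Affymetrix arrays of total RNA. The 4 groups were KY-2 cells with the Myb vector (3 arrays), KY-2 cells with the GFP vector (2 arrays), KY-1 cells with the Myb vector (4 arrays) and KY-1 cells with the GFP vector (3 arrays). The Myb vector codes for GFP, a P2A peptide and FLAG-tagged Myb, a transcription factor of blood progenitors, and the GFP vector codes for GFP. All groups share the p53KO genotype, culture with 200 U/mL human IL-15 and sorting for GFP, so the controls also lack p53. Differences between KY-2 and KY-1 are those of 2 particular lines. In RNA from many cells, fewer cells of a type and less RNA per cell cannot be told apart.

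TCF/LEF proteins bind DNA through an HMG box, act as activators with beta-catenin and as repressors with TLE corepressors, and serve T cell and early NK cell development. E proteins (Tcf3 codes for E2A, Tcf12 for HEB and Tcf4 for E2-2, which is distinct from the Wnt effector TCF7L2) bind E-box sequences and promote B and T cell fates, while Id proteins pair with them and, lacking a DNA-binding basic region, keep them off DNA. Bcl11b is needed for T cell commitment, Bcl11a for early B cells, and Notch1 signalling directs progenitors to the T lineage.

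Arrays 1 and 2 of KY-1 GFP, and arrays 3 and 4 of KY-1 Myb, differed by less than any other arrays of a group. The robust SD of their log2 differences was 0.0433 to 0.0469, against 0.102 to 0.172 for the 11 other pairs, so the arrays of a close pair were averaged into 1 replicate. This left 10 replicates, 3 of KY-2 Myb, 2 of KY-2 GFP, 3 of KY-1 Myb and 2 of KY-1 GFP. No label states that the replicates came from separate cultures, and p-values therefore reflect only the spread among these samples, part or all of which may be technical. NK cell markers fitted the label, with 11 to 13 of 15 measured markers above log2 8 in each group, led by Fcer1g. No B cell marker of 9, no marker of 6 for other innate lymphoid cells and no myeloid marker of 12 passed that level in any group, and of 8 plasmacytoid dendritic cell markers only Bst2 did. T cell markers differed between the lines, with 3 of 11 above log2 8 in both KY-2 groups and 0 of 11 in both KY-1 groups.

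The label of the vector was checked on Myb itself. Its log2 level was 9.80, 9.67 and 9.75 on the KY-2 Myb arrays, against 5.0 and 5.10 on the KY-2 GFP arrays. In KY-1 it was 9.59, 9.57, 9.55 and 9.54 with the Myb vector, against 7.96, 7.92 and 8.04 with the GFP vector. All Myb arrays therefore lay above all GFP arrays of their line, and the difference was 4.69 ± 0.08 (SE) in KY-2 and 1.58 ± 0.08 in KY-1 on the log2 scale.

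Upstream sequence is shown for Id3 and Lef1, the members with the highest fitted Myb difference in KY-2 and over both lines. Each is the 250 bases before the transcription start, on the plus strand, from the RefSeq promoter table of GRCm38.p6. Capitals mark the Myb word, searched as TAACNG or CAACNG on both strands. The Id3 window is chr4:136143572-136143821, and the Lef1 window, before the first of its 4 listed starts, is chr3:131110047-131110296.
Id3: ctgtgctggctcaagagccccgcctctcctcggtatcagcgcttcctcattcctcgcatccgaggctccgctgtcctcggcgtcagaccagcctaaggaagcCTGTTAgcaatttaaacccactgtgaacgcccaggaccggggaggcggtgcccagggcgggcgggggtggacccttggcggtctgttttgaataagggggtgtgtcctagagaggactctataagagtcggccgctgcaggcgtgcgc
Lef1: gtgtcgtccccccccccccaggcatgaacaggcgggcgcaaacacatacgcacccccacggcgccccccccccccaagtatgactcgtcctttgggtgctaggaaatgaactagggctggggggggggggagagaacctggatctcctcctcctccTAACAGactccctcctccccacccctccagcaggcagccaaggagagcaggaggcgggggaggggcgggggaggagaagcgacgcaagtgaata
The word in the Id3 window, CTGTTA, is the reverse complement of TAACAG and begins 148 bases before the start. The word in the Lef1 window, TAACAG, begins 94 bases before the start. Such a Myb word was present in 43.1% of 32851 promoter windows of this length, so its presence does not set these genes apart. Neither window held an E protein word (CAGCTG or CACCTG, in 27.7% of all windows), a TCF/LEF word (CTTTGA, in 13.8%) or an RBPJ word (TGGGAA, in 21.6%), all searched on both strands. Matches are descriptions of these letters and not binding sites. Promoter entries existed for 7 of the 8 measured members, in 12 windows. Of the other Lef1 windows, the second (chr3:131110073-131110322) overlaps the printed one, and its 1 Myb word is the same TAACAG. The third held 1 E protein word and the fourth 2 TCF/LEF words. Tcf3 and Bcl11b had 1 Myb word each, Bcl11b also had 1 TCF/LEF word, Bcl11a had 1 RBPJ word, Tcf12 had 1 E protein word in 1 of its 3 windows, and Notch1 had none of these words.

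Id3 was the member whose level varied most over the groups, and it was the member called with Myb in KY-2. Its gene lies at chr4:136143822-136145392 (GRCm38.p6). On the KY-2 Myb arrays its log2 level was 7.0, 7.12 and 7.21, against 6.73 and 6.69 on the KY-2 GFP arrays. On the KY-1 Myb arrays it was 8.31, 8.19, 8.27 and 8.32, against 8.41, 8.33 and 8.34 on the KY-1 GFP arrays. All KY-2 Myb arrays were above the KY-2 GFP arrays, whereas all KY-1 Myb arrays were below the KY-1 GFP arrays. In KY-1 the closest arrays read 8.32 with Myb and 8.33 with GFP. The share of all genes with arrays apart in this way was not counted, which also applies to the members below. In KY-2, Id3 rose by 0.40 ± 0.09 on the log2 scale with Myb, or 1.32-fold (95% interval of the log2 difference 0.21 to 0.59, limma adjusted p = 0.0308). In KY-1 the difference was -0.09 ± 0.09 (interval -0.28 to 0.10, adjusted p = 0.778). The effect in KY-2 exceeded that in KY-1 by 0.49 ± 0.12, which did not pass the adjusted test (adjusted p = 0.113, unadjusted p = 0.00182). The KY-2 call was lost when KY-2 GFP replicate 1 (adjusted p = 0.187), KY-2 GFP replicate 2 (0.189), KY-2 Myb replicate 2 (0.0908) or KY-2 Myb replicate 3 (0.107) was left out. It was also lost with median centring of the arrays (adjusted p = 0.106), with a replicate block (0.0663) and in a fit of the KY-2 arrays alone (0.0926).

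**Figure D1:**
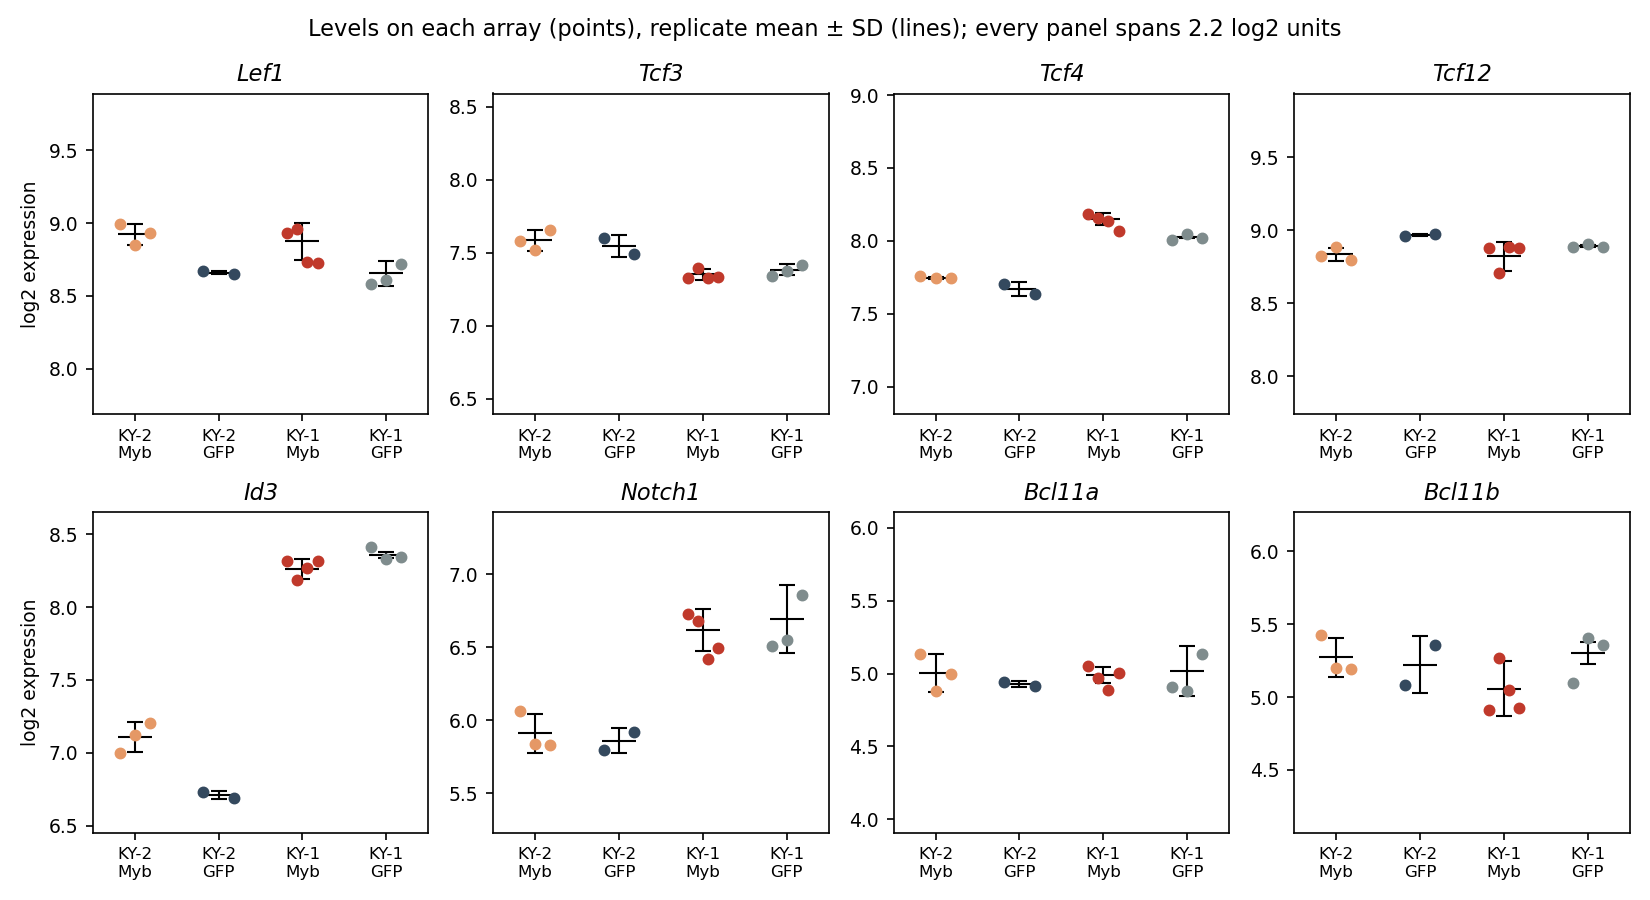
Log2 expression level of the 8 measured factors on each of the 12 arrays, by group (KY-2 Myb, KY-2 GFP, KY-1 Myb, KY-1 GFP from left to right). Points are arrays, and bars show the mean and SD over replicates, n = 3, 2, 3 and 2, with every panel spanning the same log2 range. Id3 and Notch1 sit lower in all KY-2 arrays than in all KY-1 arrays, and the Id3 means run from 6.71 in KY-2 GFP cells to 8.36 in KY-1 GFP cells.

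The line difference in Id3 was larger than its difference with Myb. Mean levels were 7.11 ± 0.10 in KY-2 Myb cells, 6.71 ± 0.03 in KY-2 GFP cells, 8.26 ± 0.07 in KY-1 Myb cells and 8.36 ± 0.02 in KY-1 GFP cells (SD, n = 3, 2, 3 and 2). In rising order the groups were KY-2 GFP, KY-2 Myb, KY-1 Myb and KY-1 GFP, and the last neighbours in that order did not pass the test. Id3 was lower in KY-2 than in KY-1 by 2.23-fold with Myb (log2 difference -1.15 ± 0.08, adjusted p = 5.47e-07) and by 3.13-fold with GFP (-1.65 ± 0.09, adjusted p = 2.06e-07). These contrasts share arrays with the Myb contrasts, since each group enters both kinds.

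Lef1, the TCF/LEF factor among the measured members, was higher on every Myb array than on the GFP arrays of the same line, but passed the adjusted test in no contrast. Its gene lies at chr3:131110297-131224357. The KY-2 Myb arrays read 8.99, 8.85 and 8.93, against 8.67 and 8.65 on the KY-2 GFP arrays. The KY-1 Myb arrays read 8.93, 8.96, 8.74 and 8.72, against 8.58, 8.61 and 8.72 on the KY-1 GFP arrays. Groups did not overlap within a line, although KY-1 Myb arrays 3 and 4 lay just above KY-1 GFP array 3. The log2 difference was 0.26 ± 0.09 in KY-2 (interval 0.06 to 0.47, adjusted p = 0.226) and 0.22 ± 0.09 in KY-1 (interval 0.01 to 0.42, adjusted p = 0.415). Averaged over both lines it was 0.24 ± 0.07, or 1.18-fold (interval 0.10 to 0.39, adjusted p = 0.0888, unadjusted p = 0.00378). The averaged difference was called without KY-1 Myb arrays 3 and 4 (adjusted p = 0.0461), with all 12 arrays as replicates (0.0351), among genes with a mean of at least 6 (0.0207) and with a trended prior variance (0.0132). The effects in the lines differed by 0.05 ± 0.13 (interval -0.24 to 0.33, adjusted p = 0.953). Lef1 gave no line difference past the test either, at 0.05 ± 0.08 with Myb and 0.00 ± 0.10 with GFP (interval -0.22 to 0.23). Its means were 8.92 ± 0.07 in KY-2 Myb, 8.66 ± 0.01 in KY-2 GFP, 8.87 ± 0.13 in KY-1 Myb and 8.66 ± 0.09 in KY-1 GFP cells (SD), a span of 0.27 log2. KY-2 GFP against KY-1 Myb, neighbours in the order of the means, was not tested.

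Among the E proteins, Tcf4, which codes for E2-2 and is required for plasmacytoid dendritic cells, separated the lines. Its gene lies at chr18:69343429-69687967. It read 7.76, 7.74 and 7.75 on the KY-2 Myb arrays, against 7.70 and 7.64 on the KY-2 GFP arrays. It read 8.18, 8.16, 8.14 and 8.07 on the KY-1 Myb arrays, against 8.01, 8.05 and 8.02 on the KY-1 GFP arrays. Every KY-2 array was below every KY-1 array, and within each line the Myb arrays were above the GFP arrays. Tcf4 was lower in KY-2 than in KY-1 by 1.32-fold with Myb (log2 difference -0.40 ± 0.06, adjusted p = 0.000574) and by 1.28-fold with GFP (-0.36 ± 0.08, adjusted p = 0.00547). With Myb the difference was 0.08 ± 0.07 in KY-2 (adjusted p = 0.74) and 0.12 ± 0.07 in KY-1 (adjusted p = 0.602). Means were 7.75 ± 0.01 in KY-2 Myb, 7.67 ± 0.05 in KY-2 GFP, 8.15 ± 0.04 in KY-1 Myb and 8.03 ± 0.0040 in KY-1 GFP cells (SD). The groups in rising order were KY-2 GFP, KY-2 Myb, KY-1 GFP and KY-1 Myb, and neighbours of the same line did not pass the test.

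Tcf3, which codes for E2A, ran the opposite way between the lines. Its gene lies at chr10:80409541-80433976. Levels were 7.58, 7.52 and 7.66 on the KY-2 Myb arrays, against 7.60 and 7.49 on the KY-2 GFP arrays. They were 7.33, 7.40, 7.33 and 7.34 on the KY-1 Myb arrays, against 7.34, 7.38 and 7.41 on the KY-1 GFP arrays. All KY-2 arrays lay above all KY-1 arrays, and Myb and GFP arrays overlapped in each line. With Myb, Tcf3 was 1.17-fold higher in KY-2 than in KY-1 (log2 difference 0.23 ± 0.07, adjusted p = 0.0272), and with GFP the difference of 0.16 ± 0.09 did not pass the test (adjusted p = 0.208). The call with Myb was lost without KY-1 Myb replicate 1 (adjusted p = 0.0762), KY-1 Myb arrays 3 and 4 (0.0702), KY-2 Myb replicate 1 (0.0588) or KY-2 Myb replicate 3 (0.104). It was also lost with median centring (0.132) and in a fit of the Myb groups alone (0.0504). Means were 7.58 ± 0.07 in KY-2 Myb, 7.55 ± 0.08 in KY-2 GFP, 7.35 ± 0.04 in KY-1 Myb and 7.39 ± 0.04 in KY-1 GFP cells (SD). The Myb differences were 0.04 ± 0.08 in KY-2 and -0.03 ± 0.08 in KY-1.

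Tcf12, which codes for HEB, a partner of E2A in thymocytes, passed the test in no contrast. Its gene lies at chr9:71844252-72111893. It read 8.83, 8.88 and 8.79 on the KY-2 Myb arrays, against 8.96 and 8.97 on the KY-2 GFP arrays, and these arrays did not overlap. The KY-1 Myb arrays read 8.88, 8.70, 8.89 and 8.88, against 8.88, 8.90 and 8.88 on the KY-1 GFP arrays, and these overlapped. The log2 difference with Myb was -0.13 ± 0.08 in KY-2 (interval -0.31 to 0.05, adjusted p = 0.571) and -0.07 ± 0.08 in KY-1 (adjusted p = 0.84). Its group means spanned 0.15 log2, and its line differences were 0.01 ± 0.07 with Myb and 0.08 ± 0.09 with GFP.

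Notch1, the receptor whose cleaved domain acts with RBPJ in the nucleus, was lower in KY-2 than in KY-1 with both vectors. Its gene lies at chr2:26457902-26503822. It read 6.07, 5.84 and 5.83 on the KY-2 Myb arrays, against 5.80 and 5.92 on the KY-2 GFP arrays. It read 6.73, 6.68, 6.42 and 6.49 on the KY-1 Myb arrays, against 6.51, 6.55 and 6.86 on the KY-1 GFP arrays. No KY-2 array reached the lowest KY-1 array, and the vectors overlapped in each line. The KY-2 level was 1.64-fold lower with Myb (log2 difference -0.71 ± 0.11, adjusted p = 0.00046) and 1.78-fold lower with GFP (-0.83 ± 0.14, adjusted p = 0.000761). Mean levels of Notch1 were 5.91 ± 0.13 in KY-2 Myb, 5.86 ± 0.09 in KY-2 GFP, 6.62 ± 0.14 in KY-1 Myb and 6.69 ± 0.23 in KY-1 GFP cells (SD), the last with the widest spread of the groups. Myb minus GFP was 0.05 ± 0.12 in KY-2 (interval -0.22 to 0.32) and -0.07 ± 0.12 in KY-1.

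The BCL11 factors were dim and passed the test in no contrast. Bcl11a, at chr11:24076564-24173558, read between 4.88 and 5.14 over the 12 arrays and was below the median probe set of its own array on 12 of 12. Bcl11b, at chr12:107910403-108004145, read 5.43, 5.20 and 5.19 on the KY-2 Myb arrays, against 5.08 and 5.36 on the KY-2 GFP arrays. On the KY-1 Myb arrays Bcl11b read 4.91, 5.27, 5.05 and 4.92, against 5.10, 5.40 and 5.36 on the KY-1 GFP arrays. All groups overlapped within each line and within each vector, and Bcl11b was below its array median on 10 of 12. Its Myb difference was 0.05 ± 0.13 in KY-2 (interval -0.23 to 0.33, adjusted p = 0.927) and -0.25 ± 0.13 in KY-1 (interval -0.53 to 0.03, adjusted p = 0.529). Bcl11a differed by 0.08 ± 0.10 in KY-2 and -0.03 ± 0.10 in KY-1. Without KY-1 Myb replicate 2 the Bcl11b line difference with Myb was called (0.32, adjusted p = 0.0482), against 0.22 ± 0.11 with all replicates (adjusted p = 0.189). The values carry no detection calls, so these levels have no measured background beside them.

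Over the 8 measured members, 1 was called higher and 0 lower with Myb in KY-2, where limma called 1.28% of all genes higher and 1.55% lower. In KY-1, 0 members were called, with 0.612% of all genes higher and 0.612% lower, and 1 member, Lef1, had an unadjusted p under 0.05. Averaged over the lines, 0 members were called, with 1.52% of genes higher and 1.58% lower, and Lef1 and Id3 had an unadjusted p under 0.05. For the difference between the Myb effects, 0 members were called, with 0.461% of genes higher and 0.381% lower, and Id3 alone had an unadjusted p under 0.05. The shares of all genes given here are of adjusted calls. The share with an unadjusted p under 0.05 was not counted, which also applies to the lists below. Some marker levels differed by vector as well. The mean log2 level of the 15 NK cell markers per array was 9.76 to 9.81 in KY-2 Myb, against 9.95 to 10.09 in KY-2 GFP cells, and 9.86 to 9.94 in KY-1 Myb, against 10.06 to 10.15 in KY-1 GFP cells. The mean of the 11 T cell markers was 4.86 to 4.94 in KY-1 Myb, against 4.67 to 4.71 in KY-1 GFP cells. Cd3g, which is among these markers, averaged 7.14 in KY-1 Myb and 4.62 in KY-1 GFP cells. In KY-2 the T cell marker ranges overlapped, at 6.41 to 6.52 in Myb and 6.46 to 6.51 in GFP cells. Whether the NK or T cell markers have a part in the member values was not tested. The median Myb difference of the members was 0.06 in KY-2 and -0.05 in KY-1 on the log2 scale, against 0.01 and 0.00 over all genes.

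**Figure D2:**
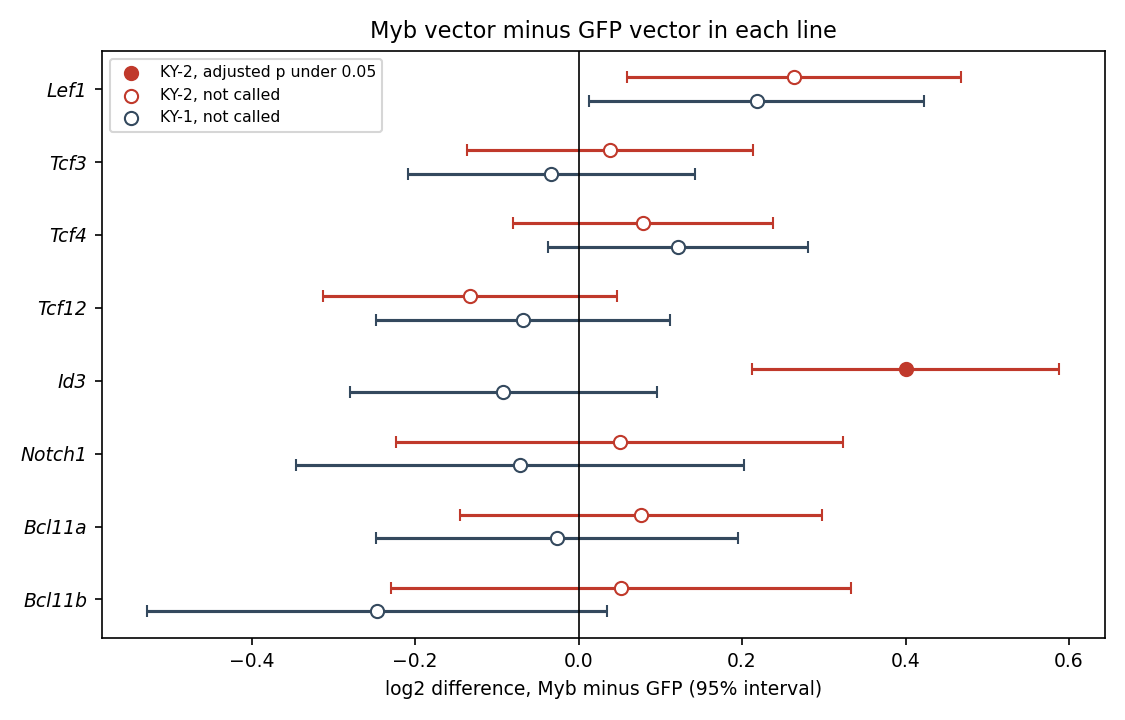
Log2 difference, Myb minus GFP, for the 8 measured factors in KY-2 and in KY-1, with 95% intervals from limma. Id3 in KY-2, at 0.40, was the called value, and the Lef1 estimates of 0.26 in KY-2 and 0.22 in KY-1 did not pass the adjusted test.

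Between the lines, 1 member was called higher and 3 lower in KY-2 with Myb, against 14.7% of all genes higher and 16.9% lower. With GFP, 0 members were called higher and 3 lower, against 13.6% of genes higher and 15.2% lower. Id3, Notch1 and Tcf4 were the members lower with either vector, and Tcf3 was the member higher with Myb. With so large a share of all genes called, these counts are read as no feature particular to the members. The mean log2 level of the 11 T cell markers per array also differed between the lines. It was 6.41 to 6.52 in KY-2 Myb and 6.46 to 6.51 in KY-2 GFP cells, against 4.86 to 4.94 in KY-1 Myb and 4.67 to 4.71 in KY-1 GFP cells. The 3 markers above log2 8 in KY-2, Cd3g, Cd8a and Cd28, were higher there by 5.05, 5.41 and 5.27 with Myb. A wider list of 30 T lineage genes had 9 called higher and 8 lower with Myb, and 5 higher and 7 lower with GFP. The marker mean therefore does not show a shift of T lineage genes as a whole. The mean of the 6 markers of other innate lymphoid cells also separated the lines, at 5.05 to 5.14 in KY-2 Myb and 5.03 to 5.12 in KY-2 GFP cells, against 4.54 to 4.67 in KY-1 Myb and 4.65 to 4.68 in KY-1 GFP cells. Hpgds, the brightest of them, averaged 7.80 in KY-2 Myb and 7.83 in KY-2 GFP, against 5.54 in KY-1 Myb and 5.49 in KY-1 GFP cells. Its gap between the lines was far wider than that of the mean. The part of either list in the line differences was not tested.

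**Figure D3:**
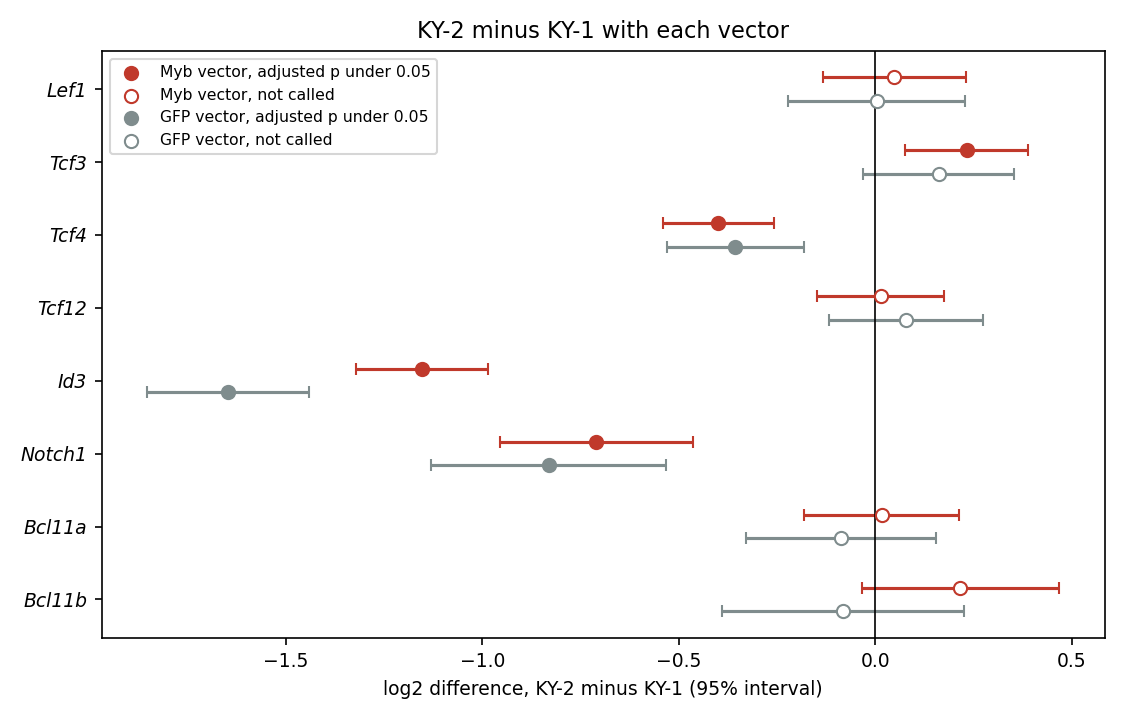
Log2 difference, KY-2 minus KY-1, for the 8 measured factors with the Myb vector and with the GFP vector, with 95% intervals from limma. Id3 (-1.15 with Myb, -1.65 with GFP), Notch1 (-0.71, -0.83) and Tcf4 (-0.40, -0.36) lie below 0 with both vectors.

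Id3 was the member whose group means spanned at least 1 log2, and the genes most like it were ranked over the 10 replicates. Among 554 genes with a mean of at least 7 and group means spanning at least 1 log2, Rsu1 had the highest Pearson r (0.998), followed by Spn (0.994) and Sgk3 (0.993). Spn codes for the leukocyte surface protein CD43 and Sgk3 for a serine/threonine kinase. Rsu1 averaged 9.84 in KY-2 Myb, 9.35 in KY-2 GFP, 11.06 in KY-1 Myb and 11.14 in KY-1 GFP cells. Spn averaged 6.72 in KY-2 Myb, 6.07 in KY-2 GFP, 9.12 in KY-1 Myb and 9.32 in KY-1 GFP cells. In each of these genes the gap between the lines was wider than the gap between the vectors, and the replicates of a group share their line and vector, so the correlations are a description.

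**Figure D4:**
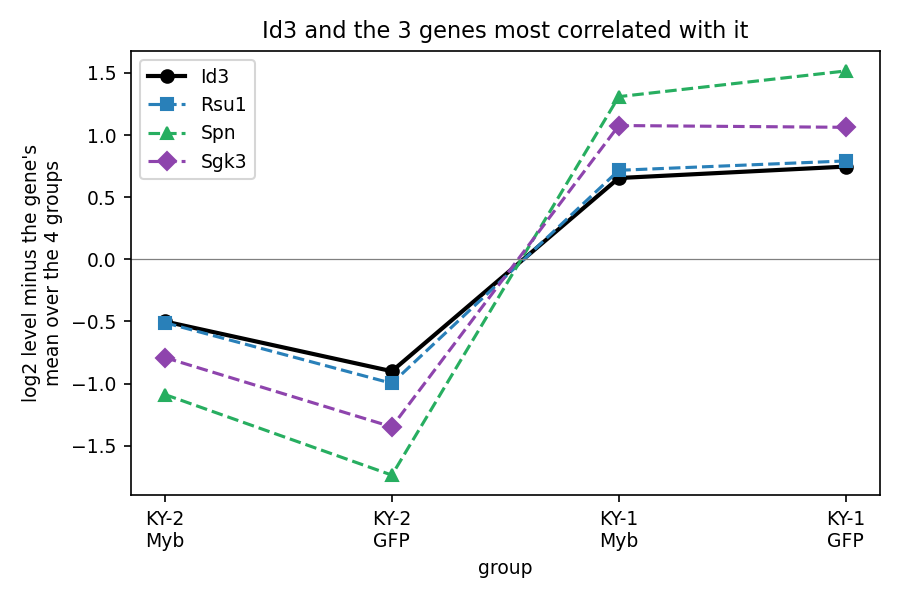
Group means of Id3 and of Rsu1, Spn and Sgk3, each minus that gene's own mean over the 4 groups, on a log2 scale. All 4 genes were lowest in KY-2 GFP, higher in KY-2 Myb, and highest in the KY-1 groups.

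The relatives of these factors passed the test with Myb in no line. Of 12 other TCF/LEF, E protein and Id genes tested, 0 were called in any of the 4 Myb contrasts by limma, and 0 had an unadjusted p under 0.05. In those contrasts 0.381% to 1.58% of all genes were called in a direction. Between the lines 2 were higher and 1 lower in KY-2 with each vector. Of all genes, 14.7% were higher and 16.9% lower with Myb, and 13.6% and 15.2% with GFP. Id2, the Id protein needed for NK cells, was higher in KY-2 by 0.66 ± 0.07 with Myb (adjusted p = 3.81e-05) and 0.68 ± 0.09 with GFP (adjusted p = 0.000168). Id1 was higher as well, by 0.56 ± 0.08 with Myb and 0.59 ± 0.09 with GFP. Id2 and Id1 were thus higher, and Id3 lower, in KY-2 than in KY-1. Bhlhe40, a basic helix-loop-helix repressor, was lower in KY-2, with log2 differences of -0.68 ± 0.07 with Myb and -0.64 ± 0.09 with GFP.

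Of 38 Wnt pathway and TCF/LEF cofactor genes, 1 was called higher and 1 lower with Myb in KY-2, and 1 higher and 0 lower in KY-1. The shares over all genes were 1.28% higher and 1.55% lower in KY-2, and 0.612% each way in KY-1. In KY-2, Rnf43, a ubiquitin ligase that removes Frizzled receptors, rose by 0.50 ± 0.10 (adjusted p = 0.0286), with a mean of 6.51 in Myb cells and 6.01 in GFP cells. Fzd6, a Frizzled receptor, fell by 0.37 on the log2 scale in KY-2 (adjusted p = 0.0408). Bcl9, which bridges beta-catenin and Pygopus, rose in KY-1 by 0.77 ± 0.16 (adjusted p = 0.0477), and its effect in KY-2 was lower than in KY-1 (log2 difference of effects -1.21 ± 0.23, adjusted p = 0.0354). These calls turned on particular replicates. The Rnf43 call was lost without KY-2 GFP replicate 1 (adjusted p = 0.213) or 2 (0.151) and without KY-2 Myb replicate 1 (0.093) or 3 (0.0757). The Fzd6 call was lost whichever of the 10 replicates was left out, with adjusted p up to 0.232 (without KY-2 GFP replicate 2), and also with a replicate block (0.0926), a trended prior variance (0.0828) and a fit of the KY-2 arrays alone (0.106). The KY-1 Bcl9 call was lost with robust moderation (0.0531) and without 8 of the 10, all except KY-2 Myb replicates 1 and 2, with adjusted p up to 0.254. The Bcl9 difference between the lines was lost without 8 of the 10 too, all except KY-1 Myb replicate 1 and KY-2 Myb replicate 1, with adjusted p up to 0.194. Averaged over both lines, 1 was called higher and 0 lower, namely Rnf43 (0.35 ± 0.07, adjusted p = 0.0303). That call was lost without 7 of the 10 replicates, all except KY-1 GFP arrays 1 and 2, KY-1 Myb arrays 3 and 4 and KY-2 Myb replicate 2, with adjusted p up to 0.128. Between the lines, 8 were higher and 8 lower in KY-2 with Myb, and 9 higher and 7 lower with GFP. Over all genes the line shares were 14.7% higher and 16.9% lower with Myb, and 13.6% and 15.2% with GFP. Those of the average over both lines were 1.52% and 1.58%, and those of the difference between the Myb effects 0.461% and 0.381%. Znrf3, a relative of Rnf43, was higher in KY-2 by 1.13 ± 0.11 with Myb and by 1.54 ± 0.13 with GFP. Fzd6 was higher by 0.84 ± 0.07 with Myb and 1.24 ± 0.09 with GFP, Rnf43 was higher by 1.06 ± 0.09 with Myb, and the corepressor gene Tle3 was lower with GFP (-0.86 ± 0.11). The means lay the same way with the other vector. Rnf43 averaged 6.01 in KY-2 GFP and 5.27 in KY-1 GFP cells, and Tle3 7.06 in KY-2 Myb and 7.91 in KY-1 Myb cells.

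Of 25 tested Notch ligand, receptor and processing genes, 0 were called higher and 1 lower with Myb in KY-2, and 0 were called in KY-1, where 5 had an unadjusted p under 0.05. Here too 1.28% of all genes were called higher and 1.55% lower in KY-2, and 0.612% each way in KY-1. The share of all genes with an unadjusted p under 0.05 was not counted, so counts at that level have no background beside them. Psen2, a catalytic subunit of the gamma-secretase that cleaves Notch, fell in KY-2 by 0.49 on the log2 scale (SE 0.08, adjusted p = 0.00553), with a mean of 6.43 in Myb cells and 6.92 in GFP cells. This call was lost without KY-2 GFP replicate 1 (adjusted p = 0.0576) or 2 (0.0663). Averaged over both lines, Psen2 was the processing gene called, at -0.30 ± 0.05 (adjusted p = 0.0127), and lost its call without KY-1 GFP arrays 1 and 2 (0.0712) or KY-2 GFP replicate 1 (0.0534) or 2 (0.0635). Of 22 nuclear Notch partners and targets, 1 was called higher and 0 lower with Myb in KY-2, and 0 were called in KY-1, where 5 had an unadjusted p under 0.05. Maml3, a coactivator of the Notch and RBPJ complex, rose in KY-2 by 0.85 ± 0.13 (adjusted p = 0.00441), with a mean of 6.42 in Myb cells and 5.57 in GFP cells. Averaged over both lines it rose by 0.72 ± 0.09 (adjusted p = 0.00129), and the KY-2 call was lost without KY-2 GFP replicate 1 (0.0798). Between the lines, the processing group had 5 higher and 8 lower in KY-2 with Myb, and 4 higher and 5 lower with GFP. The nuclear group had 5 higher and 6 lower with Myb, and 4 higher and 6 lower with GFP. Beside these counts, 14.7% of all genes were higher and 16.9% lower with Myb, and 13.6% and 15.2% with GFP. In the average over both lines, 1.52% of all genes were called higher and 1.58% lower. Adam17, a protease that can shed Notch, was higher in KY-2 by 1.42 ± 0.07 with Myb and by 1.48 ± 0.09 with GFP. Poglut1, which glycosylates Notch, was higher by 1.14 ± 0.08 with Myb and 0.86 ± 0.10 with GFP, and Psen2 by 0.67 ± 0.07 with Myb and 1.05 ± 0.08 with GFP. In the nuclear group, Maml1 was higher by 0.49 ± 0.08 with Myb and 0.68 ± 0.10 with GFP, while Maml3 was lower (-0.57 ± 0.12 with Myb, -0.85 ± 0.14 with GFP), as was Snw1 with Myb (-0.46 ± 0.07). With GFP the Snw1 means lay the same way, at 10.13 in KY-2 and 10.47 in KY-1 cells. Nrarp, a Notch target and feedback inhibitor, was lower in KY-2 with GFP (log2 difference -0.81 ± 0.11, limma adjusted p = 0.000213). With Myb its means were 6.03 in KY-2 and 6.31 in KY-1 cells. Whether Nrarp follows Notch1 was not tested.

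Of 27 chromatin partners of BCL11 proteins (subunits of the NuRD and BAF complexes), 0 were called with Myb in either line by limma, with 2 at an unadjusted p under 0.05 in each. Mbd2, a methyl-DNA binding subunit of NuRD, was lower in KY-2 than in KY-1, with log2 differences of -0.82 ± 0.07 with Myb and -0.98 ± 0.09 with GFP. With Myb, Mta3 was lower (-0.47 ± 0.07) and Smarcc2 higher (0.42 ± 0.07), and the Mta3 call was lost with the mean of its probe sets (adjusted p = 0.0551). With GFP their means lay the same way. Mta3 averaged 9.52 in KY-2 GFP and 9.76 in KY-1 GFP cells, and Smarcc2 9.17 and 8.74. With GFP, Chd3 was lower (-0.48 ± 0.09) and Mta2 higher (0.46 ± 0.10). With Myb their means lay the same way. Chd3 averaged 7.59 in KY-2 Myb and 7.92 in KY-1 Myb cells, and Mta2 9.34 and 9.07. In all, 6 of the 27 were higher and 8 lower in KY-2 with Myb, and 6 higher and 5 lower with GFP. Over all genes 14.7% were higher and 16.9% lower with Myb, and 13.6% and 15.2% with GFP. For Myb against GFP the shares were 1.28% and 1.55% in KY-2, and 0.612% each way in KY-1. Of 17 tested E protein cofactors and B lineage targets, 0 were called with Myb in either line, with 3 at an unadjusted p under 0.05 in KY-2 and 1 in KY-1. Lmo4, a LIM adaptor protein, was lower in KY-2 (-0.56 ± 0.08 with Myb and -0.71 ± 0.10 with GFP) and was among 2 lower with each vector. The other was Foxo1 with Myb (-0.32 ± 0.10, adjusted p = 0.0356) and Cd79a with GFP (-0.55 ± 0.15, adjusted p = 0.0194), and Ldb1, a LIM domain binding protein, was the 1 higher with GFP (0.36 ± 0.10, adjusted p = 0.0147). Cd79a was dim, at 3.85 in KY-2 GFP and 4.40 in KY-1 GFP cells, below the array medians of 5.31 to 5.42. The Foxo1 call was lost without KY-1 Myb replicate 1 (0.0593) or arrays 3 and 4 (0.133) and without KY-2 Myb replicate 2 (0.0792) or 3 (0.128). The Cd79a call was lost without KY-1 GFP arrays 1 and 2 (0.115) or KY-2 GFP replicate 2 (0.122). The Ldb1 call was lost without KY-1 GFP arrays 1 and 2 (0.143) or KY-2 GFP replicate 1 (0.065) or 2 (0.0712), and in a fit of the GFP groups alone (0.0584).

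Of 30 tested T lineage genes, 3 were called higher and 2 lower with Myb in KY-2, and 1 higher and 1 lower in KY-1. All genes together had 1.28% higher and 1.55% lower in KY-2, and 0.612% each way in KY-1. In KY-2, Cd3d and Cd8a, which code for T cell surface proteins, fell by 0.73 (adjusted p = 0.00391) and by 0.64 (adjusted p = 0.00425) on the log2 scale. Gata3, a factor needed for T cells and innate lymphoid cells, rose in KY-2 by 0.79 ± 0.14 (adjusted p = 0.00978). These calls were lost without KY-2 GFP replicate 1 (0.0793 for Cd3d, 0.0837 for Cd8a, 0.0749 for Gata3), and that of Gata3 also without KY-2 GFP replicate 2 (0.0936) and in a fit of the KY-2 arrays alone (0.0655). In KY-1, Cd3g, a subunit of the T cell receptor complex, rose by 2.52 ± 0.21 (adjusted p = 0.000167) and kept its call in 20 of 20 settings. Satb1, a chromatin organiser of thymocytes, fell in KY-1 by 0.85 on the log2 scale (adjusted p = 0.0389). It was dim there, at 3.99 in Myb and 4.84 in GFP cells, below the array medians of 5.31 to 5.42. Its call was lost on leaving out any KY-1 replicate or KY-2 Myb replicate 2, with adjusted p up to 0.273, and with array weights (0.0603).

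In the average of both lines, 3 T lineage genes were called higher and 2 lower. The smallest p-values were those of Cd3g (1.21 ± 0.15, adjusted p = 0.00112), Cd8a (-0.38 ± 0.07, adjusted p = 0.0117) and Trat1, a T cell receptor adaptor (0.46 ± 0.09, adjusted p = 0.0201). Cd3g averaged 12.19 in KY-2 Myb and 12.30 in KY-2 GFP cells, so its averaged rise came from KY-1. Trat1 was dim, at 3.55 in KY-2 Myb, 2.84 in KY-2 GFP, 2.93 in KY-1 Myb and 2.72 in KY-1 GFP cells. These Trat1 means lay below the array medians of 5.31 to 5.42. The Cd8a call was lost without KY-1 GFP arrays 1 and 2 (0.0675) or KY-2 GFP replicate 1 (0.071). The Trat1 call was lost without KY-1 Myb replicate 1 (0.0524) or any GFP replicate, with adjusted p up to 0.0889. For the difference between the Myb effects, 1 was called higher and 2 lower, namely the adaptor gene Lat (0.67 ± 0.12, adjusted p = 0.0316), Cd3g (-2.63 ± 0.30, adjusted p = 0.00161) and Cd3d (-0.84 ± 0.15, adjusted p = 0.0297). The Lat call was lost without 8 of the 10 replicates, all except KY-1 GFP replicate 3 and KY-2 Myb replicate 3, with adjusted p up to 0.145. The Cd3d call was lost without 8 of the 10 too, all except KY-1 Myb replicate 1 and KY-2 Myb replicate 1, with adjusted p up to 0.167. Between the lines, 9 were higher and 8 lower in KY-2 with Myb, and 5 higher and 7 lower with GFP. Over all genes the line shares were 14.7% higher and 16.9% lower with Myb, and 13.6% and 15.2% with GFP. Those of the average were 1.52% and 1.58%, and those of the difference between the Myb effects 0.461% and 0.381%. Cd8a (5.41 ± 0.09 with Myb, 5.93 ± 0.11 with GFP), Cd28 (5.27 ± 0.10, 5.19 ± 0.12) and Cd3g (5.05 ± 0.19, 7.68 ± 0.23) were higher in KY-2.

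Of 13 tested NK and innate lymphoid fate factors, 2 were called higher and 1 lower with Myb in KY-2, and 0 in KY-1, where 4 had an unadjusted p under 0.05. Again 1.28% of all genes were called higher and 1.55% lower in KY-2, and 0.612% each way in KY-1, and the share at an unadjusted p under 0.05 was not counted. In KY-2, Ikzf2, which codes for Helios, rose by 0.79 ± 0.09 (adjusted p = 0.000662) and kept its call in 19 of 19 settings. Ets1, a factor needed for NK cell development, fell by 0.79 on the log2 scale in KY-2 (adjusted p = 0.00581), and the call was lost without KY-2 GFP replicate 1 (0.103). Rora, a factor of innate lymphoid cells, rose in KY-2 by 0.52 ± 0.10 (adjusted p = 0.0135), and the call was lost without KY-2 GFP replicate 1 (0.0825) or 2 (0.131). In the average of both lines, 1 was called higher, Ikzf2 (0.37 ± 0.06, adjusted p = 0.00929), and 1 lower, Ets1 (-0.67 ± 0.09, adjusted p = 0.00159), and the Ikzf2 call was lost without KY-1 GFP arrays 1 and 2 (0.0546). For the difference between the Myb effects, Ikzf2 (0.84 ± 0.13, adjusted p = 0.00977) and Rora (0.83 ± 0.13, adjusted p = 0.0145) were called higher. The Ikzf2 difference was lost without KY-1 GFP replicate 3 (0.0645), KY-2 GFP replicate 1 (0.0584) or KY-2 GFP replicate 2 (0.05001), and the Rora difference without any GFP replicate, with adjusted p up to 0.0791. Between the lines, 4 were higher and 4 lower in KY-2 with Myb, and 4 higher and 3 lower with GFP. Over all genes the line shares were 14.7% higher and 16.9% lower with Myb, and 13.6% and 15.2% with GFP. Those of the average were 1.52% and 1.58%, and those of the difference between the Myb effects 0.461% and 0.381%. Eomes, a T-box factor of NK cells, was higher by 2.66 ± 0.10 with Myb and 2.44 ± 0.12 with GFP, and Zeb2 by 2.25 ± 0.13 with Myb and 2.54 ± 0.15 with GFP. Both were dim in KY-1, below the array medians of 5.31 to 5.42. Eomes, which is also among the NK cell markers, averaged 4.71 in KY-1 Myb and 4.86 in KY-1 GFP cells, and Zeb2 4.13 and 3.99. Ikzf2 was higher with Myb (1.83 ± 0.08) and Rora lower with GFP (-1.77 ± 0.10). The means lay the same way with the other vector. Ikzf2 averaged 6.04 in KY-2 GFP and 5.05 in KY-1 GFP cells, and Rora 6.53 in KY-2 Myb and 7.47 in KY-1 Myb cells.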

How the data were processed

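Log2 values per probe set were deposited by the authors. Per the submitters' processing notes the tools were Partek and RMA, a method that subtracts background, brings arrays to a common distribution and combines the probes of a set. The options and versions used are not given in the sources. Array medians lay between 5.31 and 5.42 with values of 1.49 to 13.96. Precision is limited by how many arrays there are.

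Of 35556 probe sets, 21789 had 1 gene symbol, 1621 several and 12146 none in the annotation used. The brightest probe set stood for each of 999 genes with several. Gene coordinates are those of the RefSeq gene table of GRCm38.p6. All 19938 genes entered 1 limma 3.58.1 model (R 4.3.3) of the 4 group means, with 6 residual and 4.89 prior degrees of freedom. P-values were adjusted by Benjamini-Hochberg over all genes, with a threshold of 0.05. The test was run on simulated data first. Errors on differences are standard errors, and those on levels are SDs over replicates.

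The members, the lists of related genes and the marker lists were chosen with earlier results of these data known. The text names all members, up to 3 called genes with the smallest p from each list and comparison, the 3 genes most like a member spanning at least 1 log2, and Myb. Alternatives were all 12 arrays as replicates, a replicate block, a mean of at least 6, median centring, quantile normalization applied again, the mean of probe sets, array weights, trended or robust moderation, a fit restricted to the groups compared, a 1.5-fold minimum and leaving out each replicate.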

Additional observations from a re-analysis of the deposited data

Results flagged for a closer look

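Id3 was flagged for the size of the difference between its Myb effects in the 2 lines. All 3 KY-2 Myb replicates lay above the 2 KY-2 GFP replicates, while all 3 KY-1 Myb replicates lay below the 2 KY-1 GFP replicates. The KY-1 margin was small, with the closest arrays at 8.32 with Myb and 8.33 with GFP. Lef1 and Tcf4 were also apart by vector in both lines, with Myb above GFP in each. The share of all genes apart in either way was not counted. The KY-1 difference by itself did not pass the test (-0.09, 95% interval -0.28 to 0.10, adjusted p = 0.778). The effect in KY-2 minus that in KY-1 was 0.49 ± 0.12 on the log2 scale (95% interval 0.23 to 0.76). The limma interaction contrast gave an adjusted p of 0.113 over all genes and an unadjusted p of 0.00182. Over its alternatives the difference lay between 0.44 and 0.55, with adjusted p between 0.025 and 0.312.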

How the results depend on the processing

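The count of members called with Myb in KY-2, 1 in the reported fit, was 0 with a 1.5-fold minimum, with a replicate block, with median centring and with a fit of only the groups compared, and 0 to 1 when each replicate was left out. Averaged over both lines the count was 1 (Lef1), not 0, with all 12 arrays as replicates, with a mean of at least 6 and with trended moderation, and 0 to 1 when each replicate was left out. For the difference between the Myb effects it was 1 (Id3), not 0, with the same 3 settings. Between the lines with Myb it was 2, not 4, with a 1.5-fold minimum. Id3 in KY-2 kept its call in 13 of 20 settings, with log2 differences of 0.35 to 0.46. Id3, Notch1 and Tcf4 kept their line differences in 20 of 20 settings with each vector, leaving aside the 1.5-fold minimum, which was applied to counts and which Tcf4 missed. No called difference turned its sign. Of the uncalled ones, 43 values over 17 member results did, the largest being 0.09 in size. No pairing of arrays by replicate number was evident. Of 15 correlations of same-numbered deviations, 2 were over 0.1 (range -0.465 to 0.278), and an array correlated best with its own number in 9 of 30 checks. The deviations are from means of groups with few arrays and so partly fixed, and this check cannot exclude a pairing. Counts over all genes moved by more than 1.5 times in each contrast: with Myb in KY-2 from 182 to 888 around 565, in KY-1 from 72 to 823 around 244, averaged from 142 to 1143 around 619, for the difference from 88 to 427 around 168, and between the lines from 2312 to 7211 with Myb around 6305 and from 2716 to 7069 with GFP around 5757. Bcl11a and Bcl11b were not tested with a mean of at least 6. A lone GFP replicate was assumed to vary like the other groups. With 2 or 3 replicates a group, the 95% interval of Lef1 in KY-1, 0.01 to 0.42, shows the precision of a small difference.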
